A study of Mus musculus with 30 samples.

Results

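Arntl, the gene of BMAL1, together with Clock and Npas2, encodes the activators of the core circadian clock. The 3 genes were chosen by name, and they are 3 of the 20764 genes listed for hearts and 3 of the 54532 genes listed for HL-1 cells. Libraries were made from the RNA of 18 hearts, all from female mice kept in a light and dark cycle, labelled C57BL6 and given in the study's methods as a mixed C57Bl6J/N background, with 3 mice in each of 6 groups. Young mice were 2 months old and old mice 12 months old. All young mice and 1 set of old mice drank plain water (called H2O here and MQ in the labels), and the other old mice drank nicotinamide riboside (NR), a precursor of NAD+, at 3 g/l from the age of 2 months. Hearts were taken at zeitgeber time 10 (ZT10, in the light phase) or ZT22 (in the dark phase), in hours after lights on. The study took these as times of high (ZT22) and low (ZT10) Arntl and Clock, by qRT-PCR in a separate cohort of young females. Each rhythm was thus sampled at only 2 times, which cannot tell a smaller rhythm from a shifted one. In addition, 12 libraries came from HL-1, an immortalized line grown from a mouse atrial tumor, in 4 groups of 3 libraries. Untreated cells were set beside cells given FK866, an inhibitor of NAMPT, the enzyme that recycles nicotinamide to NAD+. The remaining groups received NR in addition to FK866, without or with Ex527, an inhibitor of the NAD+-dependent deacetylase SIRT1. The study's methods describe replicates of its cell experiments in general as wells cultured separately, but the labels do not say so of the HL-1 libraries, so p-values for them measure the spread between these libraries, which may be technical.

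BMAL1 forms a dimer with CLOCK or with NPAS2, and the dimer binds E-box motifs to switch on Per, Cry, Rev-erb and the PAR-bZip genes such as Dbp. PER and CRY proteins then inhibit the dimer, which closes the main loop of the clock. In a further loop, REV-ERB proteins repress Arntl and ROR proteins activate it through the same elements (ROREs) in its promoter. In the heart, the clock is known for timing metabolism and electrical excitability over the day.

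All 3 genes are protein-coding genes and were located in GRCm38 by their Ensembl identifiers. Arntl (ENSMUSG00000055116) lies on the plus strand at chr7:113207465-113314126, Clock (ENSMUSG00000029238) on the minus strand at chr5:76209868-76304792, and Npas2 (ENSMUSG00000026077) on the plus strand at chr1:39193731-39363236. Of the 3 genes, Arntl alone has exons that overlap those of another annotated gene, the antisense gene Gm45355. That gene had at most 1 count in any HL-1 library and was not analysed in hearts.

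The promoters are shown because elements of the loops above, ROREs and E-boxes, are known to act in such regions. RefSeq (GRCm38.p6) gave 6 windows for the 3 genes, each from 250 bases before to 50 bases after an annotated start. The Arntl window with the most motif matches (chr7:113207261-113207560, plus strand) and the first listed windows of Clock (chr5:76304743-76305042, minus strand) and Npas2 (chr1:39194022-39194321, plus strand) are printed 5′ to 3′ along the gene, with matches in capitals.

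Arntl: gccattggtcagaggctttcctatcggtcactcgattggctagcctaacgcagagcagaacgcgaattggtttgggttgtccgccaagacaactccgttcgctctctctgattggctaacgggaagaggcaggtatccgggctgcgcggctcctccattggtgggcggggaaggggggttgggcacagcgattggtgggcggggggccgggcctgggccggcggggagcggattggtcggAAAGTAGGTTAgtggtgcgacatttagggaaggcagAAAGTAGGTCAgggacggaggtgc

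Clock: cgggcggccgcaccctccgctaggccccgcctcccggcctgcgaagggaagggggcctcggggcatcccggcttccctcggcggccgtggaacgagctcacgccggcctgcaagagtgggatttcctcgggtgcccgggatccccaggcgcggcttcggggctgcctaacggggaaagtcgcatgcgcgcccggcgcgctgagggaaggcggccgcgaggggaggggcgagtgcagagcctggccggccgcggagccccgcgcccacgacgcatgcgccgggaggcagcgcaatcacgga

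Npas2: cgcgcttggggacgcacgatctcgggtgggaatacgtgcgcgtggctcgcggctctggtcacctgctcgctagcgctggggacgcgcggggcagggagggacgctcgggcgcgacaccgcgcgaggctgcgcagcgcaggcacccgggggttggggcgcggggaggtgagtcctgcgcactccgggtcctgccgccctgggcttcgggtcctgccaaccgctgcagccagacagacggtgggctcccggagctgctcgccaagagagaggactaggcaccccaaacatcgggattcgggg

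Both strands were searched for a longer RORE taken as it stands in the Arntl promoter, the nuclear receptor half-site AGGTCA, the E-box CACGTG, the E′-box CACGTT and the D-box TTANGTAA. The printed Arntl window held 2 matches to the RORE, AAAGTAGGTTA from -10 to 1 and AAAGTAGGTCA from 27 to 37 of the annotated start, where any base was allowed in the penultimate place, and AGGTCA lay within the second, from 32 to 37. Since this motif was taken from Arntl, its matches there are a description only. It was found in 20 of 32851 windows of mouse genes (0.0609%), whereas AGGTCA was found in 16.3%, CACGTG in 7.15%, CACGTT in 4.68% and TTANGTAA in 2.32%. The printed windows of Clock and Npas2 held none of the 5 motifs. In a further Clock window, AGGTCA was matched on the opposite strand from -119 to -114.

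Heart libraries held 3922140 to 7562220 counts and HL-1 libraries 21337900 to 35000100 counts, given to 6 digits. Levels are given as CPM (counts-per-million) after TMM scaling. All 3 activators were among the 15443 genes tested in hearts, which had an average count over 5. In old NR hearts at ZT10, libraries 1 and 3 differed by 5.83% more than sampling noise (variance ratio 1.06), whereas every other pair of hearts in a group differed by at least 65.3% more. They are labelled as 2 mice and were kept as 2 hearts, although a shared source of these libraries cannot be told apart from unusual likeness by their counts. For the activators, edgeR calls from the fit of all hearts that rest on them are also given with both summed into 1 library. No such values are given for other genes, so their calls with old NR hearts at ZT10 count both libraries. Markers of cardiomyocytes summed to 4501 to 6778 CPM in all hearts, with all 5 detected. In old H2O hearts at ZT10, however, markers of atrial tissue summed to 388 to 505 CPM. In old NR hearts at ZT10 they summed to 112 to 130 CPM, a difference that accompanies each comparison of these 2 groups below. Atrial sums also spread widely in young hearts at ZT10 (154 to 744 CPM, median 185) and old H2O hearts at ZT22 (123 to 530 CPM, median 135). At ZT10 fibroblast markers summed to 753 to 860 CPM in old H2O and 626 to 721 CPM in old NR hearts. At ZT22 fibroblast markers were likewise at 766 to 908 CPM in old H2O and 690 to 755 CPM in old NR hearts. In young hearts they summed to 824 to 870 CPM at ZT10 and 806 to 812 CPM at ZT22. Macrophage markers summed to 276 to 309 CPM at ZT10 and 305 to 347 CPM at ZT22 in old H2O hearts, above old NR hearts (242 to 261 and 233 to 255 CPM) and young hearts (224 to 259 and 198 to 230 CPM). Endothelial markers summed to 1484 to 1644 CPM in young hearts at ZT22, above young hearts at ZT10 (1300 to 1370 CPM) and both old groups at ZT22 (1265 to 1465 with H2O and 1225 to 1419 CPM with NR). The part of these differences in the results was not tested.

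Arntl, whose product is a partner of both CLOCK and NPAS2, was low at ZT10 and high at ZT22. In young hearts its level was 1.57, 2.57 and 1.78 CPM at ZT10 and 114, 130.4 and 107 CPM at ZT22. The ZT10 values rest on only 8, 14 and 8 counts, and the Poisson interval of 8 counts (95%, counting error only) runs from 3.45 to 15.8. In old H2O hearts, Arntl reached 6.82, 6.45 and 9.46 CPM at ZT10 and 59.4, 71.0 and 73.8 CPM at ZT22. Every old H2O heart was thus above every young heart at ZT10 and below every young heart at ZT22. In old NR hearts it was 2.32, 4.62 and 3.72 CPM at ZT10, from 13, 32 and 22 counts, and 90.1, 80.8 and 86.7 CPM at ZT22. At both times all old NR hearts lay on the young side of all old H2O hearts, and at ZT10 they overlapped with the young hearts. In order of their means, the groups ran from young (1.97 CPM) over old NR (3.55) to old H2O (7.58) at ZT10, and from old H2O (68.0) over old NR (85.8) to young (117) at ZT22. Neighbors in this order overlapped only for young and old NR hearts at ZT10. In whole hearts, fewer cells of a type and less RNA per cell cannot be told apart.

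Clock, which encodes a bHLH-PAS partner of BMAL1, moved in a narrow range. In young hearts it was 78.1, 83.8 and 84.0 CPM at ZT10 and 188, 231 and 204 CPM at ZT22. Old H2O hearts had 122, 114 and 136 CPM at ZT10 and 200.4, 193 and 172 CPM at ZT22, and old NR hearts had 101.4, 98.5 and 100.9 CPM at ZT10 and 153, 182 and 214 CPM at ZT22. At ZT10 the groups did not overlap, in the order young, old NR and old H2O, with means of 82.0 ± 3.36, 100.3 ± 1.57 and 124 ± 11.2 CPM (SD, n = 3). At ZT22, by contrast, all groups overlapped, with means of 183 ± 30.6 in old NR, 188 ± 14.5 in old H2O and 208 ± 22.2 CPM in young hearts (SD, n = 3).

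Npas2, which encodes the alternative partner of BMAL1, differed between the groups at the other time of day. It was 5.31, 8.07 and 9.34 CPM at ZT10 and 28.7, 37.5 and 32.2 CPM at ZT22 in young hearts. In old H2O hearts it was 7.02, 6.79 and 7.40 CPM at ZT10 and 20.5, 20.8 and 22.6 CPM at ZT22. In old NR hearts it was 5.36, 6.07 and 5.58 CPM at ZT10 and 18.5, 21.5 and 21.5 CPM at ZT22. All young hearts at ZT22 were above all old hearts, with a mean of 32.8 ± 4.43 CPM against 21.3 ± 1.15 in old H2O and 20.5 ± 1.70 in old NR hearts (SD, n = 3), and the old groups overlapped. At ZT10 the young hearts spread over both old groups, and each old NR heart was below each old H2O heart.

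**Figure D1:**
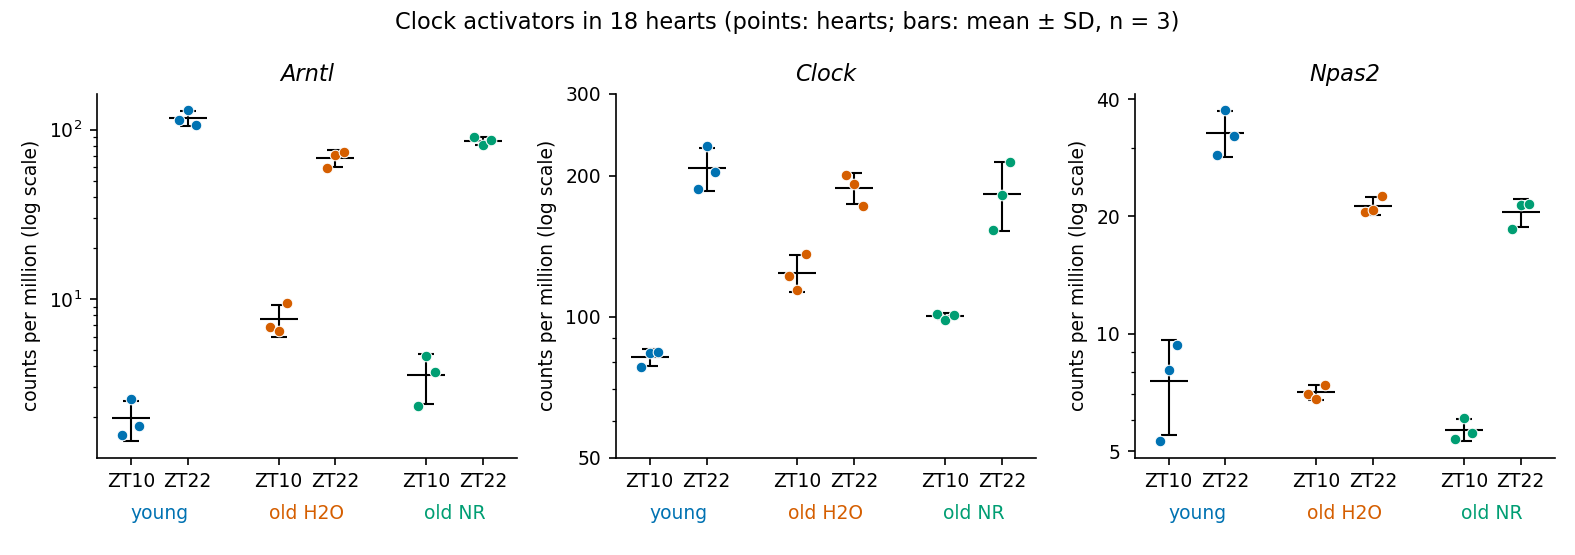
CPM (log axis) of Arntl, Clock and Npas2 in each of the 18 hearts by group and time, with means and SD (n = 3). Arntl at ZT10 runs from 1.97 CPM in young to 7.58 CPM in old H2O hearts, Clock differs between groups at ZT10 and overlaps at ZT22, and Npas2 is highest in young hearts at ZT22.

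To compare the genes with each other, levels were divided by gene length. Over all annotated exons, young hearts at ZT22 had 15.5 ± 1.63 CPM per kilobase of Arntl, 15.1 ± 1.61 of Clock and 6.85 ± 0.925 of Npas2 (SD, n = 3). Over the principal transcript alone, these levels were 39.3 ± 4.13, 21.3 ± 2.27 and 7.74 ± 1.05 CPM per kilobase (SD, n = 3), so the order of Arntl and Clock at ZT22 depends on the length used. At ZT10, Clock had the highest level per kilobase in every group under both lengths, with 5.97 over all exons in young, 9.06 in old H2O and 7.31 in old NR hearts.

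Differences between the times of day were tested in each group of mice (edgeR's quasi-likelihood test, called at an adjusted p under 0.05). The study's qRT-PCR had already given ZT22 and ZT10 as times of high and low Arntl and Clock. For both genes the direction was therefore known beforehand, and the shares over all genes are given for scale only. All 3 activators were lower at ZT10 than at ZT22 in young hearts, where 14.4% of the genes tested were called (7.57% lower), in old H2O hearts, where 4.2% were called (2.64% lower), and in old NR hearts, where 5.37% were called (3.01% lower). No ZT10 heart overlapped with a ZT22 heart of the same group for any of the 3 genes, as was so for 30.6%, 22.2% and 22.2% of all genes tested. For Npas2 the log2 fold change of ZT10 over ZT22 was -2.13 ± 0.16 in young (SE, adjusted p = 2.34e-09), -1.60 ± 0.16 in old H2O (adjusted p = 1.08e-06) and -1.86 ± 0.17 in old NR hearts (adjusted p = 8.51e-08, edgeR). For Arntl it was -4.55 ± 0.21 in old NR hearts (adjusted p = 1.24e-14, edgeR), between -5.86 ± 0.29 in young and -3.19 ± 0.17 in old H2O hearts. Likewise, the value of Clock in old NR hearts, -0.88 ± 0.10 (adjusted p = 6.36e-06, edgeR), lay between -1.34 ± 0.10 and -0.60 ± 0.10. With the near-identical NR hearts summed, the values in old NR hearts were -4.54 for Arntl, -0.88 for Clock and -1.85 for Npas2, and all were still called.

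As a share of the young log2 fold change, Arntl kept 54.5% ± 3.92 in old H2O and 77.7% ± 5.21 in old NR hearts (SE). Clock kept 44.4% ± 8.06 and 65.3% ± 8.85, and Npas2 75.1% ± 9.52 and 87.3% ± 10.1 (SE). These shares use the same young hearts. In all 3 genes the old NR value lay between the other groups, but the differences between groups were called only in part, as follows.

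**Figure D2:**
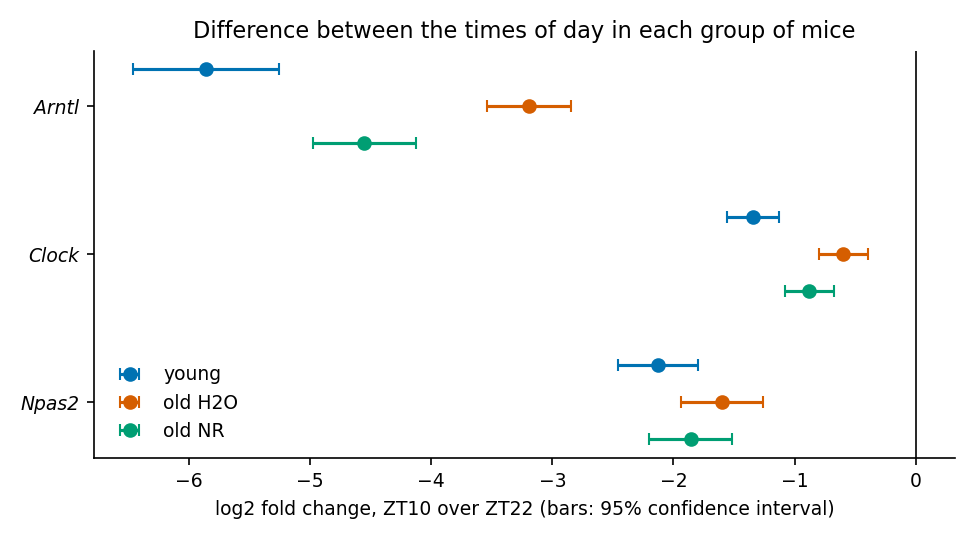
Log2 fold change of ZT10 over ZT22 for each gene in young, old H2O and old NR hearts, with 95% confidence intervals (3 hearts per group and time). The intervals of Arntl in the 3 groups do not overlap, and those of Npas2 overlap in all 3.

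The change of the time difference with age was called for 2 of the 3 activators, while 6.89% of the genes tested were called (3.13% in the direction of these genes). In Npas2 the difference of the log2 fold changes, old H2O over young, was 0.53 ± 0.23 (SE), which was not called (adjusted p = 0.173, edgeR), against 2.67 ± 0.33 in Arntl and 0.75 ± 0.14 in Clock. The change with NR in old mice was called for 1 of the 3, Arntl, while 0.343% of the genes tested were called (0.11% in its direction). Arntl had a difference of -1.36 ± 0.26 (SE, adjusted p = 0.0201, edgeR), so its time difference was 2.57-fold larger in old NR than in old H2O hearts, and it ranked 21 of 15443 genes by p-value. Clock had -0.28 ± 0.14 (adjusted p = 0.503) and Npas2 -0.26 ± 0.23 (adjusted p = 0.747, edgeR). The call for Arntl held with the near-identical hearts summed (-1.35, adjusted p = 0.0326, edgeR), but it was lost without old H2O heart 3 at ZT10 (-1.18, adjusted p = 0.122), without old NR heart 1 at ZT10 (-1.15, adjusted p = 0.0808) and without old NR heart 3 at ZT10 (-1.37, adjusted p = 0.0625, edgeR).

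Old NR hearts still differed from young hearts in the time difference of Arntl, by 1.31 ± 0.36 (SE, adjusted p = 0.0253, edgeR), while 5.98% of the genes tested were called (3.21% in its direction). This comparison shares the old NR hearts with the previous comparison, and with the near-identical hearts summed the value was 1.32 (adjusted p = 0.0288, edgeR). The call was lost without old NR heart 2 at ZT10 (1.05, adjusted p = 0.131), without old NR heart 3 at ZT10 (1.30, adjusted p = 0.0615), and without young heart 1 (1.16, adjusted p = 0.0820) or young heart 3 at ZT10 (1.24, adjusted p = 0.0770, edgeR). For Clock the difference was 0.47 ± 0.14 (SE, adjusted p = 0.0541), and 0.46 with the near-identical hearts summed (adjusted p = 0.0902, edgeR). DESeq2 called it with all hearts kept (adjusted p = 0.0466). Clock was also called without old NR heart 3 at ZT22 (0.60, adjusted p = 0.0112) or young heart 1 at ZT22 (0.53, adjusted p = 0.0282, edgeR). Npas2 had 0.27 ± 0.23 (SE, adjusted p = 0.582, edgeR).

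At each time by itself, age moved the activators unequally. At ZT10, Arntl was 3.74-fold higher in old H2O than in young hearts (log2 1.90 ± 0.32, SE, adjusted p = 0.000401) and Clock 1.51-fold higher (0.60 ± 0.11, adjusted p = 0.00139, edgeR), 2 calls of 3 beside 5.87% of the genes tested (2.95% higher). These 2 groups did not overlap for Arntl and Clock, as for 27.8% of all genes. Npas2 had -0.09 ± 0.19 (SE, adjusted p = 0.867, edgeR) and 0.07 without young heart 3. At ZT22, 2 of the 3 were again called, beside 14.1% of the genes tested (6.17% lower), but here they were Arntl (-0.77 ± 0.10, adjusted p = 2.29e-05) and Npas2 (-0.62 ± 0.13, adjusted p = 0.00202, edgeR), neither of which overlapped, as for 28.2% of all genes. The value of Clock at ZT22 was -0.15 ± 0.10 (SE, adjusted p = 0.333, edgeR). Macrophage markers at both times and endothelial markers at ZT22 moved with these comparisons, and their part in them was not tested. At ZT10, atrial markers had a median of 397 CPM in old H2O and 185 CPM in young hearts, with overlap. Their part was not tested either.

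Compared with the same young hearts, old NR hearts at ZT22 were lower in Npas2 (-0.67 ± 0.12, SE, adjusted p = 0.000882) and in Arntl (-0.45 ± 0.09, adjusted p = 0.00255, edgeR), while 14.2% of the genes tested were called (6.58% lower). Neither gene overlapped, as for 27.5% of all genes. Clock had -0.18 ± 0.09 (SE, adjusted p = 0.243) and was called without old NR heart 3 (-0.30, adjusted p = 0.0411, edgeR). At ZT10 no activator was called between these groups, while 4.28% of the genes tested were. There, Arntl had 0.86 ± 0.34 (adjusted p = 0.162), Clock 0.29 ± 0.11 (adjusted p = 0.135) and Npas2 -0.40 ± 0.19 (SE, adjusted p = 0.277, edgeR). All 3 were under 0.05 before adjustment, and DESeq2 called 0 of them. Clock was called with only the compared hearts in the fit (0.29, adjusted p = 0.00421, edgeR). With all groups in the fit and the near-identical hearts summed, Clock had 0.29 and was not called (adjusted p = 0.237, edgeR). It alone did not overlap between these groups, as for 25.4% of all genes. At both times, fibroblast and endothelial markers were lower in every old NR heart than in every young heart. At ZT10 the same held for atrial and cardiomyocyte markers, while at ZT22 macrophage markers were higher. The part of these markers in the comparisons was not tested.

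When NR was compared with H2O in old hearts at a single time, no activator was called. At ZT10 each of the 3 was lower in every NR heart, a separation shared by 18.8% of all genes, and 0.285% of the genes tested were called. The log2 fold change was -1.05 ± 0.25 in Arntl (adjusted p = 0.0690), -0.31 ± 0.10 in Clock (adjusted p = 0.258) and -0.31 ± 0.19 in Npas2 (SE, adjusted p = 0.609, edgeR). Before adjustment 2 of these p-values were under 0.05, and DESeq2 called 1, Arntl (adjusted p = 0.00902). With the near-identical hearts summed, Arntl had -1.04 (adjusted p = 0.117) and Clock -0.31 (adjusted p = 0.418, edgeR). With only the compared hearts in the fit, Arntl (adjusted p = 0.0466) and Clock (-0.30, adjusted p = 0.0212, edgeR) were both called. The atrial, fibroblast and macrophage markers, which were lower in these NR hearts, moved with this comparison, and their part in it was not tested. At ZT22, Arntl was 0.31 ± 0.10 higher on the log2 scale in NR hearts (SE, adjusted p = 0.183, edgeR), without overlap, as for 14.7% of all genes, while 0.35% were called. Clock (-0.03 ± 0.10) and Npas2 (-0.05 ± 0.13) overlapped. At ZT22, 1 of the 3 p-values was under 0.05 before adjustment, and DESeq2 called 0. Fibroblast and macrophage markers were lower in the NR hearts here too. Over both times, the mean effect of NR was -0.37 ± 0.13 in Arntl (adjusted p = 0.263), -0.17 ± 0.07 in Clock (adjusted p = 0.364) and -0.18 ± 0.12 in Npas2 (SE, adjusted p = 0.634, edgeR). There, 0.337% of the genes tested were called, 2 of the 3 activators had a p-value under 0.05 before adjustment, and DESeq2 called 0.

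Because CLOCK and NPAS2 compete for the same partner, counts of the 3 genes were also compared within each heart, which does not depend on library size (log2 ratios with 0.5 added to each count, 15 exact two-sided permutation tests). These counts were not divided by gene length, which over all exons is 13727 bases in Clock, 7523 in Arntl and 4791 in Npas2. The size of a ratio is therefore not a ratio of RNA levels. Per count of Npas2, young hearts had 11.0 counts of Clock at ZT10 and 6.33 at ZT22, old H2O hearts 17.3 and 8.81, and old NR hearts 17.5 and 8.84 (geometric means). The log2 ratio of Npas2 to Clock was thus lower at ZT10 than at ZT22 by a mean of -0.92 (exact permutation p = 0.00025, adjusted p = 0.00125) and lower in old H2O than in young hearts by -0.57 (exact permutation p = 0.005, adjusted p = 0.0125), both the smallest p these tests allow. At ZT10 it was -3.85, -3.36 and -3.15 in young hearts and -4.10, -4.06 and -4.18 in old H2O hearts, and at ZT22 -2.70, -2.62 and -2.66 against -3.28, -3.21 and -2.93. Each old H2O heart was therefore below each young heart at both times. NR moved this ratio by -0.01 (exact permutation p = 0.895, adjusted p = 0.955), and the sign of this value changed when hearts were left out.

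Per count of Arntl, young hearts had 40.4 counts of Clock at ZT10 but 1.78 at ZT22, again without regard to gene length. In old H2O hearts the corresponding values were 16.4 and 2.77, and in old NR hearts 28.6 and 2.11. The difference of this ratio between times changed with age by 1.94 (log2, exact permutation p = 0.005, adjusted p = 0.0125). With NR it changed by -1.20 (exact permutation p = 0.01, adjusted p = 0.0188). These tests permuted group labels within each time. Their null is thus no group difference at either time, which is stricter than equal time differences. Without old H2O heart 2 at ZT10 (-1.24, adjusted p = 0.0563) or heart 3 (-1.09, adjusted p = 0.0656), the change with NR no longer passed by exact permutation. Between Arntl and Npas2, the log2 ratio at ZT10 was -1.69, -1.62 and -2.32 in young, -0.04, -0.07 and 0.35 in old H2O and -1.18, -0.39 and -0.57 in old NR hearts. Its time difference changed with age by 2.12 (exact permutation p = 0.01, adjusted p = 0.0188) and with NR by -1.19 (exact permutation p = 0.005, adjusted p = 0.0125). With the near-identical hearts summed, the changes with NR were -1.07 for Arntl to Clock and -1.09 for Arntl to Npas2, and both still passed.

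**Figure D3:**
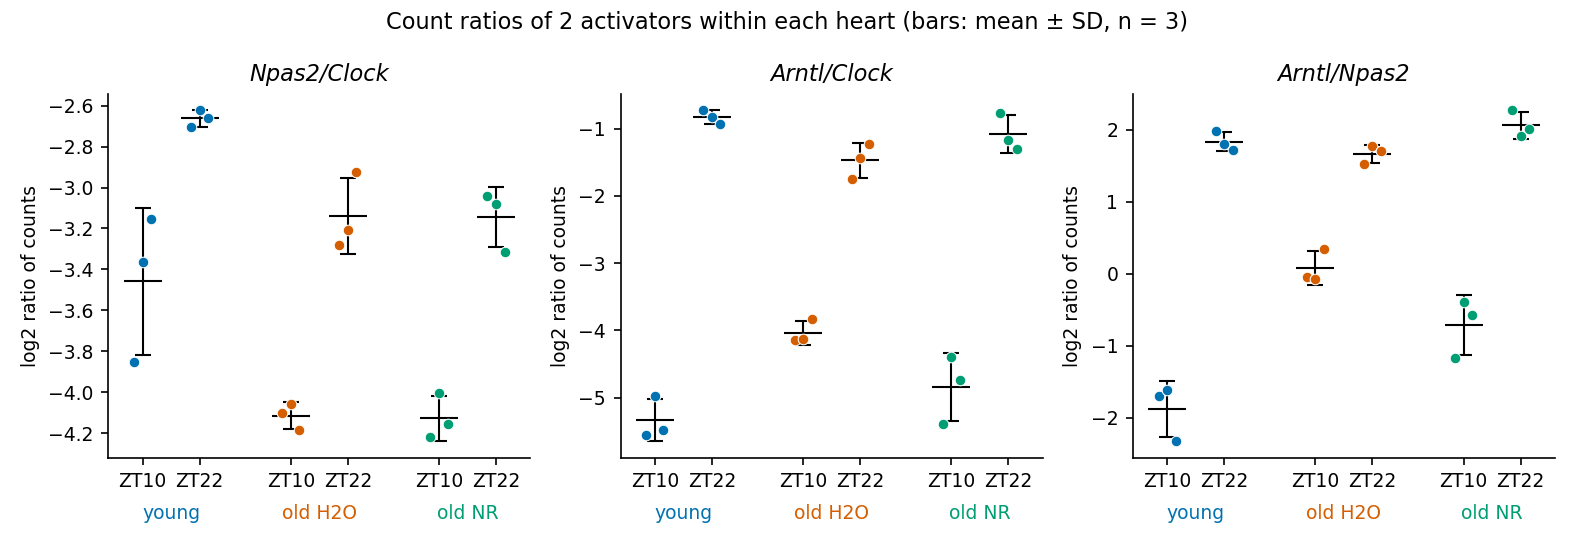
Log2 ratio of the counts of 2 activators within each heart by group and time, with means and SD (n = 3). Npas2 to Clock is below every young heart in all old H2O hearts at both times, and ratios with Arntl at ZT10 are highest in old H2O hearts.

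The genes that BMAL1 and its partners drive were read from a list of 15 E-box targets, all of which were tested. Between ZT10 and ZT22, 13 were higher and 1, Cry1, was lower at ZT10 in each of the 3 groups of mice, and Nampt was not called in any. Over all genes tested, 6.8% were called higher at ZT10 in young, 1.56% in old H2O and 2.36% in old NR hearts. The median log2 fold change was 1.59 in young, 1.16 in old H2O and 0.90 in old NR hearts, beside 0.0069, -0.0010 and -0.010 over all genes tested. Thus most targets were high when the activators' own transcripts were low. Dbp, a PAR-bZip factor, had 4.66 ± 0.19 in young, 3.26 ± 0.14 in old H2O and 3.34 ± 0.14 in old NR hearts, and Per3, a period gene, had 3.18 ± 0.10, 1.63 ± 0.08 and 1.58 ± 0.08 (SE). In young hearts these were the largest changes of the list.

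With age, the time difference was smaller in 7 of the 15 targets, beside 3.76% of all genes called in this direction, among them Per3 (-1.55 ± 0.13, adjusted p = 5.87e-07), Dbp (-1.39 ± 0.24, adjusted p = 0.00103) and Nr1d2 (-0.79 ± 0.15, SE, adjusted p = 0.00328, edgeR). It was also smaller in Cry1, a repressor that peaks later, whose negative difference moved by 0.51 ± 0.13 (SE, adjusted p = 0.0195, edgeR). Other targets went the opposite way without a call. From young to old H2O hearts, the time difference of Per2 rose from 1.66 to 2.05, Bhlhe40 from 0.57 to 0.76 and Cry2 from 0.57 to 0.61. With only 2 times, a smaller rhythm and a shifted one cannot be told apart. At ZT10, 5 targets (2.92% of all genes) were lower in old H2O than in young hearts, led by Per3 (-0.58 ± 0.07) and Ciart (-0.57 ± 0.12), and at ZT22 4 (7.96% of all genes) were higher, led by Dbp (1.06 ± 0.22) and Per3 (0.98 ± 0.10), and 2 (6.17% of all genes) were lower, Cry1 (-0.70 ± 0.09) and Per2 (-0.69 ± 0.16, SE). In the time difference of old NR against young hearts, 6 targets (2.77% of all genes) and Cry1 (3.21% of all genes) were called in the same manner. With NR against H2O in old hearts, where 0.343% of all genes were called, 0 of the 15 targets were called for a change of the time difference by edgeR or DESeq2, and 2 had p-values under 0.05 before adjustment. The values of the targets ran from -0.49 ± 0.19 in Per1 to 0.39 ± 0.20 in Nr1d1 (SE), with a median of -0.05 beside -0.01 over all genes. The difference between Arntl and its targets in this respect was not tested.

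**Figure D4:**
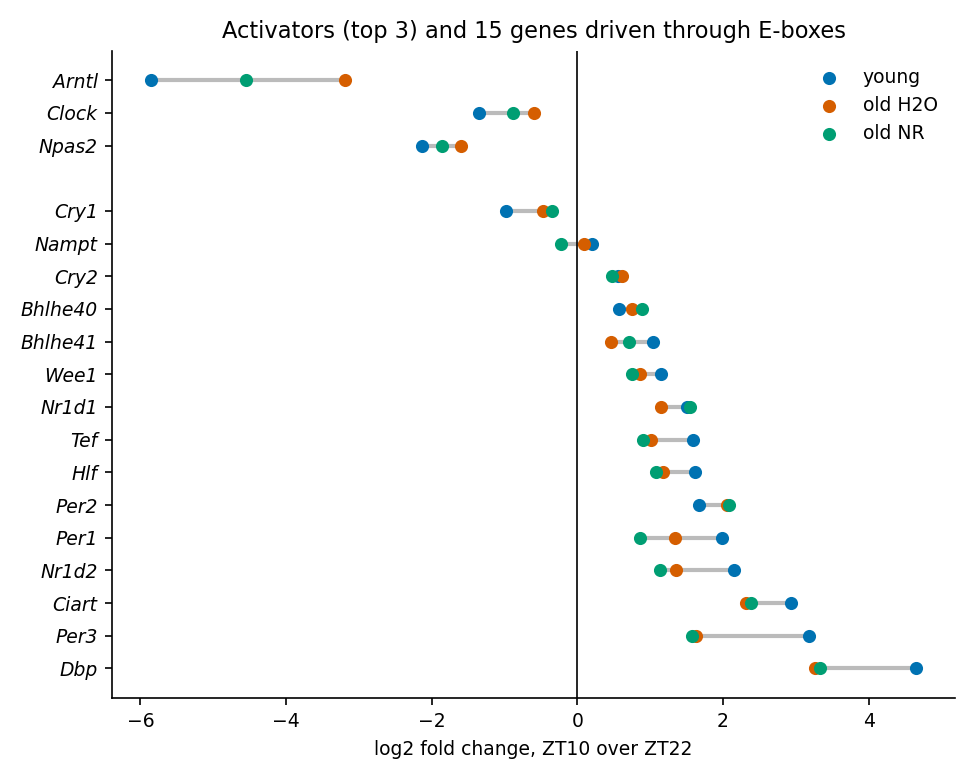
Log2 fold change of ZT10 over ZT22 of the 3 activators and 15 E-box targets in young, old H2O and old NR hearts, with gray lines spanning the groups. Activators lie left of 0 in each group, and the 13 called targets other than Cry1 lie right of 0.

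Among 7 genes of the ROR and REV-ERB arm that regulates Arntl, Nr1d1 and Nr1d2, the genes of REV-ERBα and REV-ERBβ, were higher at ZT10 in every group of mice, and both also stand among the E-box targets. Rora, the gene of RORα, had 0.30 ± 0.11 in young (adjusted p = 0.0641), 0.40 ± 0.11 in old H2O (adjusted p = 0.0297) and -0.17 ± 0.10 in old NR hearts (SE, adjusted p = 0.414, edgeR). Neither its change with age (0.10 ± 0.15, adjusted p = 0.761) nor that with NR (-0.58 ± 0.15, SE, adjusted p = 0.115, edgeR) was called. Of 11 cofactors and modifying enzymes of the activators, such as Sirt1, 0 were called between times in any group by edgeR or DESeq2, and at most 2 had p-values under 0.05 before adjustment.

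The activators belong to the bHLH-PAS family, and of 16 relatives 12 were tested in hearts. In Hif3a, an inhibitory relative of the hypoxia factors, the time difference was called in young hearts (1.66 ± 0.33, SE, adjusted p = 0.000850, edgeR) and changed with age (-1.66 ± 0.45, SE, adjusted p = 0.0237, edgeR). Of all genes tested, 14.4% and 6.89% were called in these comparisons. In old NR hearts 2 relatives were called by edgeR and 1 by DESeq2, while edgeR called 5.37% of all genes tested. Hif1a had -0.024 ± 0.090 in young, -0.27 ± 0.09 in old H2O and -0.39 ± 0.09 in old NR hearts (SE, adjusted p = 0.0111 in the last, edgeR). The coactivator Ncoa1 had -0.20 ± 0.08, -0.26 ± 0.08 and -0.28 ± 0.08 (SE, adjusted p = 0.0368 in old NR hearts, edgeR), and neither gene was called for a change with age or NR. Arntl2, the paralog of Arntl, was not called between the times in any group, with 0.11 ± 0.18 in young, -0.46 ± 0.19 in old H2O and -0.32 ± 0.17 in old NR hearts (SE).

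Genes with patterns most like the activators over the 18 hearts were found by the root mean square difference of log2 CPM, each gene centered on its own mean, among 12678 genes with an average count of at least 20. This measure is smallest for genes with the same sign and size of change, and the hearts share their libraries. Nearest to Arntl were Fam124b (0.86), Spon2 (1.23) and Tmem171 (1.33), while Npas2 ranked 5 (1.44) and Clock 21 (1.81). In the other direction the ranks were unlike these. Arntl ranked 12616 from Npas2 and 12672 from Clock. Npas2 ranked 6238 from Clock, and Clock ranked 16 from Npas2. Nearest to the mirror image of Arntl was Dbp (0.62), ahead of Gm45909 (1.06) and Ciart (1.08), a repressor of the BMAL1 dimer. Nearest to Npas2 were Adam19 (0.33), Igf2bp2 (0.37) and Nfil3 (0.37), which encodes a repressor that binds D-boxes, and nearest to its mirror image were Nr1d2 (0.30), Hlf (0.38) and Nr1d1 (0.38). Clock was nearest to Leo1 (0.16), Ypel2 (0.18) and Clmp (0.20), and its mirror image to Slc25a33 (0.18), Bhlhe41 (0.19) and Gadd45b (0.20). For scale, the root mean square deviation of each activator from its own mean was 2.30 for Arntl, 0.51 for Clock and 0.95 for Npas2.

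In HL-1 cells, labelled as cardiomyocytes, the defining markers of that type were nearly absent. The 5 cardiomyocyte markers summed to 0.262 to 4.36 CPM, with Actc1 at 0 counts in all 4 groups, and the 5 atrial markers to 0.320 to 1.70 CPM. Fibroblast markers, in contrast, summed to 639 to 893 CPM, although Tcf21 was at 0 in all groups and Lum in those with FK866 alone and with Ex527. The summed level of the list was 639 to 656 CPM with FK866 against 810 to 864 CPM in untreated cells. The part of this difference in the results was not tested. The results below are therefore described by treatment only. Arntl and Clock passed the filter on low counts and were among 14760 genes tested, and Npas2 did not.

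Arntl was at 16.97, 17.5 and 18.2 CPM in untreated cells and 16.1, 16.1 and 16.4 CPM with FK866. It was 14.9, 17.6 and 16.5 CPM with FK866 and NR, and 18.7, 19.2 and 20.1 CPM when Ex527 was added. The libraries with Ex527 were above all others, by a log2 fold change of 0.26 ± 0.08 over FK866 (SE, adjusted p = 0.0393), 0.25 ± 0.08 over FK866 and NR (adjusted p = 0.0633) and 0.14 ± 0.08 over untreated cells (adjusted p = 0.204, edgeR). These comparisons share the libraries with Ex527, and 29.5%, 33.3% and 37.7% of all genes tested did not overlap in them. Arntl was also lower in each FK866 library than in each untreated one (-0.12 ± 0.08, SE, adjusted p = 0.299, edgeR), as 36.6% of all genes did not overlap there. In FPKM, the authors' length-scaled unit, Arntl had 2.31 ± 0.0881 in untreated cells and 2.54 ± 0.112 with all 3 agents (SD, n = 3).

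Clock was 56.8, 46.2 and 42.6 CPM in untreated cells, 60.4, 50.2 and 79.2 CPM with FK866, 64.7, 62.4 and 69.2 CPM with FK866 and NR, and 69.0, 62.8 and 65.0 CPM with all 3 agents. Untreated cells overlapped with FK866 but not with the other treatments, for which 45% (FK866 and NR) and 37.7% (all 3 agents) of all genes did not overlap. The log2 fold change over untreated cells was 0.38 ± 0.13 with FK866 (adjusted p = 0.0462), 0.43 ± 0.13 with FK866 and NR (adjusted p = 0.0313) and 0.43 ± 0.13 with all 3 agents (SE, adjusted p = 0.0376, edgeR), and these comparisons share the untreated libraries. The value with FK866 ran from 0.19 without FK866 library 3 (adjusted p = 0.216) to 0.52 without FK866 library 2 (adjusted p = 0.00398, edgeR), neither of which met the call rule.

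Calls in HL-1 cells needed an adjusted p under 0.01 and a change over 1.5-fold, and 0 of 12 tests of Arntl and Clock in the 6 comparisons met this by edgeR or by DESeq2. Among all genes tested, 4.59% were called with FK866 against untreated cells, 4.81% with NR added to FK866, 0.901% with FK866 and NR against untreated cells, 1.27% with all 3 agents against FK866, 0.596% against FK866 and NR, and 1.42% against untreated cells. Before adjustment, 5 of the 12 p-values were under 0.05. With NR added to FK866, the log2 fold change was 0.01 in Arntl, with a 95% interval from -0.16 to 0.18, and 0.05 in Clock, from -0.23 to 0.33 (edgeR). Both genes overlapped between these groups, in which 42.8% of all genes did not.

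Npas2 had 0 counts in 9 of the 12 HL-1 libraries, and 3, 9 and 1 counts in 1 library each with FK866, with FK866 and NR, and with all 3 agents. A count of 0 allows a level of up to 0.103 to 0.136 CPM, from 3 counts per library, and the Poisson interval of 9 counts runs from 4.12 to 17.1 counts (counting error only). The other libraries of these groups had 0 counts, so no difference between treatments was detectable. In hearts, the lowest level of Npas2 was 5.31 CPM, although the tables were normalized separately and the levels were not tested against each other.

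**Figure D5:**
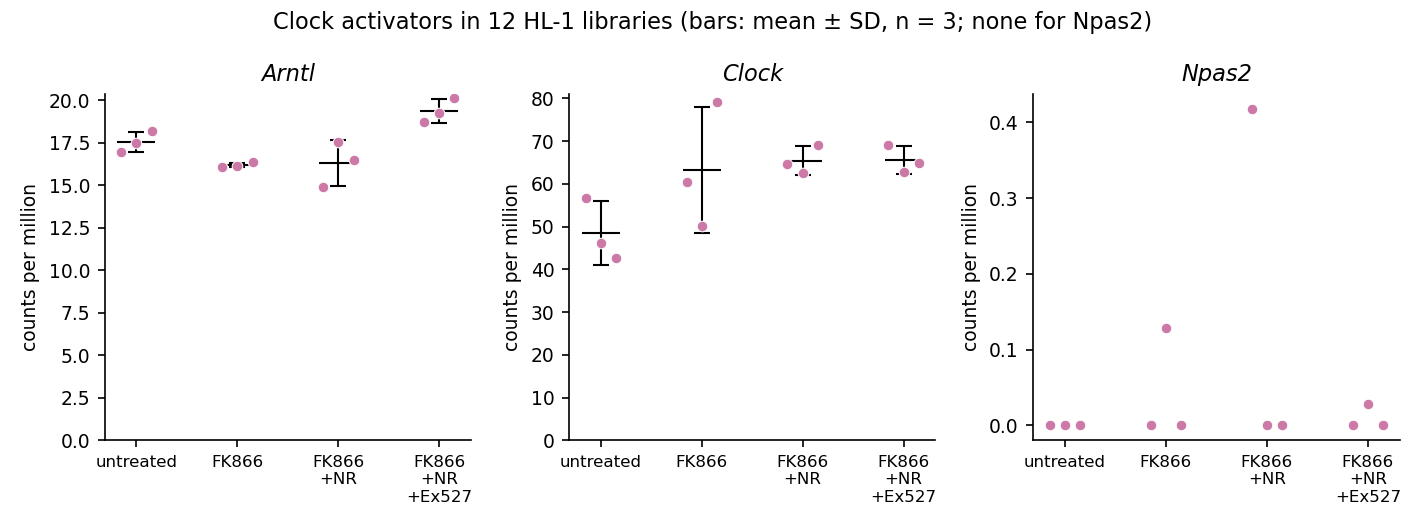
CPM of Arntl, Clock and Npas2 in each of the 12 HL-1 libraries by treatment, with means and SD (n = 3) for Arntl and Clock. Arntl ranges from 14.9 to 20.1 CPM and Clock from 42.6 to 79.2 CPM, and Npas2 is at 0 in 9 libraries.

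Of the E-box targets in HL-1 cells, FK866 raised Per1 (0.83 ± 0.11, SE, adjusted p = 5.17e-05) and Cry2 (0.64 ± 0.10, adjusted p = 0.000401), the genes of 2 repressors of the BMAL1 dimer, and lowered Dbp (-0.73 ± 0.12, adjusted p = 0.000458, edgeR). These were the 3 calls among 15 targets tested, while 4.59% of all genes tested were called. The median of the targets was 0.11 beside 0.02 over all genes. With NR added, Per3 was higher than with FK866 alone (0.64 ± 0.13, SE, adjusted p = 0.00283, edgeR). This was 1 call among the 15, while 4.81% of all genes tested were called. Against untreated cells, Per2 was the 1 target called with FK866 and NR (0.61 ± 0.10, SE), beside 0.901% of all genes. With all 3 agents against untreated cells, Per1 (0.84 ± 0.10) and Per2 (0.71 ± 0.10) were higher and Dbp (-0.63 ± 0.12, SE) was lower, beside 1.42% of all genes called. With Ex527 in addition, 0 of the 15 targets were called against FK866 and NR by edgeR or DESeq2, while 6 p-values were under 0.05 before adjustment. Sirt1, whose product deacetylates BMAL1, was the 1 called of 11 cofactors with FK866 (0.70 ± 0.10, SE, adjusted p = 0.000119, edgeR), beside 4.59% of all genes. The study states, where it describes NR added to FK866, that Sirt1 missed its fold change minimum. In that comparison 0 of the 11 cofactors were called here by edgeR or DESeq2. Of 16 bHLH-PAS relatives 11 were tested, and Ncoa1 (0.71 ± 0.15) and Arnt2, a partner of several family members (0.63 ± 0.14, SE), were higher with FK866. These were the 2 calls of that list, beside the same 4.59% of all genes.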

How the data were processed

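RNA of 18 hearts and 12 HL-1 libraries was analysed. For hearts, the authors used Trimmomatic 0.39, STAR 2.7.10a on mm10, Picard 3.0.0 to remove duplicates and featureCounts 2.0.4, and they removed multi-mapping, ribosomal and mitochondrial reads. The authors deposited read counts for both sets. Of the heart tables, the one named as normalized holds whole counts and was used, and the deposited table named as raw holds rounded, scaled values (treated as a score), which served for gene symbols only. For HL-1 the authors also deposited FPKM values, quoted for Arntl alone. The labels name HISAT2 and TopHat2, and the counter and the strand setting are not given in the sources used here. The authors' duplicate removal without molecular identifiers can lower the counts of highly expressed genes.

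Counts were tested here with edgeR 4.0.16 (TMM, quasi-likelihood F test, 1 fit of all groups per set, Benjamini-Hochberg adjustment over all genes tested) in R 4.3.3. Heart genes had an average count over 5 and were called at an adjusted p under 0.05. HL-1 genes passed filterByExpr and were called at an adjusted p under 0.01 and over 1.5-fold. SEs are Wald errors of the fit. Of 13 heart and 6 HL-1 comparisons, each was refitted with DESeq2 1.42.0, other filters and scalings, a replicate block and each library left out. Ratios of counts within a heart, with 0.5 added, were tested by exact two-sided permutation of hearts within the other factors' groups (SciPy 1.17.1), with p-values adjusted over 15 tests. With 3 against 3 hearts a single exact test cannot go below 0.1, so such tests pooled strata. Tests of a changed time difference permuted group labels within each time, so their null is no group difference at either time. Scripts were tested on simulated data.

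The members and lists were chosen with earlier results of these data known. Beside the 3 members, at most 4 called genes per list and comparison, those with the largest change, and the 3 genes nearest to each member's pattern and to its mirror image were named. Arntl2, Cry1, Nampt and uncalled values of other listed genes were named after their values were seen. Intervals of counts and floors of 3 counts cover counting error only. Replicates were 1 heart per mouse. No per-sample column lacked a sample. Some results of the gene lists are not reported here.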

Additional observations from a re-analysis of the deposited data

Results flagged for a closer look

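The following values stood out because the same contrast, ZT10 against ZT22, was tested to differ between groups of mice. The time difference of Arntl differed between old H2O and young hearts by 2.67 (adjusted p = 1.72e-05), between old NR and old H2O hearts by -1.36 (adjusted p = 0.0201) and between old NR and young hearts by 1.31 (adjusted p = 0.0253, edgeR), all as log2 fold changes. That of Clock differed between old H2O and young hearts by 0.75 (adjusted p = 0.00285, edgeR). Within hearts, the time difference of the log2 ratio of Arntl to Clock changed with age by 1.94 and with NR by -1.20, and that of Arntl to Npas2 by 2.12 and -1.19 (exact permutation tests, adjusted p from 0.0125 to 0.0188). The null of these permutation tests is no group difference at either time. All of the values share hearts with one another, and the ratios share Arntl, whose young ZT10 values rest on 8 to 14 counts.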

How the results depend on the processing

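Of 714 refits of 51 log2 fold changes of the activators, 680 kept their direction and side of the threshold, 7 lost a call, 14 gained one and 13 changed sign, the last all among values that were not called. With NR by time, the number of activators called was 0 to 1 when single libraries were left out. Old NR by time against young gave 0 to 2 calls likewise, and 2 by DESeq2, filterByExpr or the replicate block (Clock 0.47, adjusted p = 0.0399, edgeR). In no comparison did the deviations of same-numbered libraries correlate above 0.1 in all 3 pairs, so the numbers were not taken as pairs, and the block changed no other call. Summing the near-identical hearts, an alternative chosen after seeing the data, changed no call. At ZT10, NR against H2O gave 1 call by DESeq2 and 2 with only the groups compared, and old NR against young gave 1 with only the groups compared. With an adjusted p under 0.05 and no fold minimum, HL-1 calls rose from 0 to 1 for FK866, for FK866 with NR and for all 3 agents against untreated cells, and for all 3 agents against FK866. Leaving out single libraries gave -0.29 to 0.069 for Npas2 in old H2O against young at ZT10, -0.16 to 0.071 for Clock in NR against H2O at ZT22, and in HL-1 -0.036 to 0.071 for Arntl and -0.085 to 0.23 for Clock with NR added to FK866. For Clock with all 3 agents it gave -0.094 to 0.24 against FK866 and -0.045 to 0.046 against FK866 and NR, where DESeq2 gave -0.0031 and its size factors -0.0036. An average count filter over 5 gave -0.0041 for Arntl with NR added to FK866. For the ratio of Npas2 to Clock, leaving out hearts gave -0.045 to 0.044 with NR and -0.11 to 0.063 with NR by time, and summing the near-identical hearts 0.0034 and 0.018. Arntl to Clock with NR by time ranged from -1.42 to -0.92. The causes were not tested. Few counts of Arntl at ZT10 and of Npas2 in HL-1 limit their precision.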
